A study of Mus musculus with 11 samples.

Results

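Expression of 8 enzymes that break down phenylalanine, tyrosine and tryptophan was followed through mouse liver development from E14.5 to P56. The enzymes were taken as a fixed list of pathway members: Tat, Hpd, Hgd and Fah of the tyrosine route, and Tdo2, Kmo, Kynu and Haao of the tryptophan route. Of the 8 genes, 7 were found in the gene name column of the array files, and Haao was found through the description of a probe that carries a transcript ID as its name. The array holds 10 probes for them, 1 for each gene except Tdo2 and Kynu, which have 2 each. All 8 genes had a probe that passed the brightness filter, among 16704 genes tested and 27962 gene names on the array.

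RNA of normal mouse liver was hybridised in the Cy5 channel to 11 Agilent arrays, with 3 arrays each at E14.5, E18.5 and P56 and 2 at P5 (replicates 2 and 3), and the labels call them biological replicates. The labels give the embryonic ages as days 14 and 18, written E14.5 and E18.5 in the study's results. They give liver as the source and name the cells hepatoblasts at E14.5, immature hepatocytes at E18.5 and hepatocytes after birth. Whether an embryonic array holds whole liver or isolated cells is not settled by the labels. No genotype or treatment is given for any stage, and the strain of the profiled livers is not stated in the methods, which name C57BL/6 mice for the embryonic liver cells that were isolated. In the Cy3 channel every array carried the same reference, a commercial RNA from livers of normal adult mice, so each value below is a log2 ratio of liver to this adult reference, where 0 means the level of the reference and -1 means a level 2 times lower. Dyes were not swapped. A ratio compares a gene with itself between stages, and levels of different genes were not compared. Where ratios or changes of different genes are ranked below, the rank is not one of level. It also depends on brightness, since the processing shrinks the values of dim genes.

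Liver is the main site of aromatic amino acid breakdown in mammals. Tyrosine, taken up or made from phenylalanine with the help of the cofactor tetrahydrobiopterin, passes through Tat, Hpd, Hgd, Gstz1 and Fah to fumarate and acetoacetate. Tryptophan is opened by Tdo2 to N-formylkynurenine, which Afmid turns into kynurenine, and Kmo, Kynu and Haao carry it on towards the precursor of NAD. Inherited loss of these enzymes causes well known disorders, among them alkaptonuria (Hgd) and hereditary tyrosinaemia (Fah). Tat and Tdo2, the entry enzymes of their routes, are classic examples of liver enzymes that appear late in development and respond to glucocorticoids.

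Each measurement rests on the hybridisation of a probe of 60 bases. For 4 of the 10 probes, those of Hpd, Fah and Tdo2, the coordinates in the array files (mm7) span more than 60 bases of genome, so that the probe reads across an exon junction of the spliced mRNA. These are shown because they are the probes whose exonic position the files themselves establish, and because the pair for Tdo2 measures the same changes in separate stretches of 1 mRNA. Their positions, listed in the files from high to low coordinates, are chr5:122402761-122404883 for Hpd, chr7:80513986-80514802 for Fah, and chr3:82068883-82071893 and chr3:82073120-82074397 for the brighter and the dimmer probe of Tdo2.
Hpd: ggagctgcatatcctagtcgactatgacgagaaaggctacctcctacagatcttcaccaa
Fah: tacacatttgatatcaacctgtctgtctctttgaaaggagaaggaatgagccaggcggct
Tdo2, brighter probe: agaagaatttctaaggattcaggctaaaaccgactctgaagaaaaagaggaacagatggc
Tdo2, dimmer probe: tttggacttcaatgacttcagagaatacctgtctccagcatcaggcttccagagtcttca
The other probes map to single stretches of 60 bases: Tat to chr8:108599439-108599498, Hgd to chr16:37330265-37330324, Kmo to chr1:175626352-175626411, Haao to chr17:82125656-82125715, and Kynu to chr2:43688986-43689045 and chr2:43643929-43643988. Whether these lie in coding or untranslated sequence was not determined here.

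The arrays held 16790 to 25718 spots well above background in Cy5, and precision is limited by the number of arrays. P56 replicate 2 had the fewest such spots, and log ratios of the P56 arrays correlated with each other at r = 0.827 to 0.937, against 0.987 to 0.99 at E14.5. P56 replicate 2 gave the lowest P56 value for 7 of the 8 enzymes, and results are given without it where that matters. By the scan times in the file headers, the E14.5 arrays and E18.5 replicate 1 shared a scanning session, as did P5 replicate 3 and the P56 arrays. Since no session held both embryonic and postnatal arrays, scan and stage cannot be told apart in P5 or P56 against E14.5 or E18.5. The 6 comparisons between stages share arrays with each other and share the reference.

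All 8 enzymes were lower at E14.5 than at P56 and, except for Tdo2 under scale normalization, than at P5. In P56 against E14.5, 8 of 8 were called higher at an adjusted p under 0.05 in limma with Benjamini-Hochberg adjustment over all genes, where 36.1% of all genes were called higher and 34.8% lower. In P5 against E14.5, 8 of 8 were also called higher, against backgrounds of 24.9% higher and 24.1% lower. The median log2 fold change of the 8 was 3.35 in P56 against E14.5 and 2.03 in P5 against E14.5, while the medians of all genes were 0.04 and 0.02. Scale normalization, a step that sets the spread of log ratios equal on all arrays, left 3 of the 8 called higher in P5 against E14.5 and put Tdo2 at -0.55, not called. In P56 against E14.5 it left 7, with Fah at 0.71 (adjusted p = 0.15) in place of 1.40. The courses of the stage means were not alike for all 8 enzymes, as the plot of single arrays shows, and were not tested against each other.

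**Figure D1:**
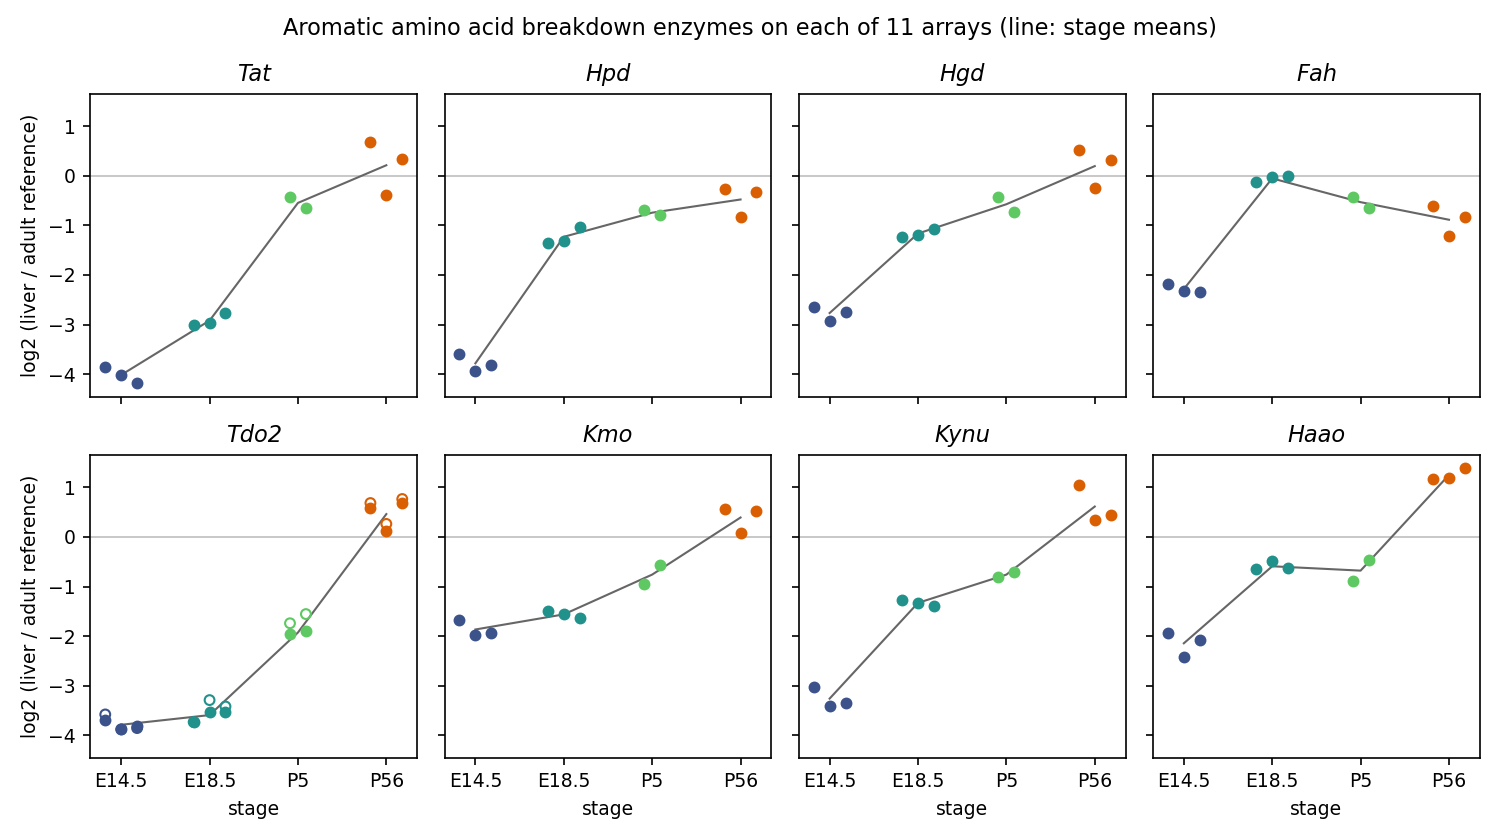
Log2 ratio of liver to the adult reference (vertical axis) on each of the 11 arrays at the 4 stages (horizontal axis), with a panel per enzyme. Filled points are the probe standing for the gene, open points the dimmer probe of Tdo2, lines join stage means, and the dim second probe of Kynu is not drawn. On the 6 embryonic arrays Tdo2 stays between -3.86 and -3.52 by its brighter probe and between -3.88 and -3.29 by its dimmer one. Fah is highest at E18.5.

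Tat, tyrosine aminotransferase, which starts tyrosine breakdown by removing the amino group, rose at every step in the reported fit. Its log2 ratios were -3.85, -4.02 and -4.18 at E14.5 and -3.01, -2.97 and -2.77 at E18.5. The P5 arrays read -0.44 and -0.66 and the P56 arrays 0.67, -0.38 and 0.34. Stage by stage the arrays did not overlap, although P56 replicate 2 lay just above P5. The E14.5 mean was -4.02 ± 0.16 (SD, n = 3), or 0.0618 times the reference, and the P56 mean was 0.21 ± 0.54 (SD, n = 3), or 1.16 times the reference. Of its whole rise of 4.23 on the log2 scale, 25.9% was reached at E18.5 and 82% at P5. The step across birth was the largest of the 3 for this gene, with a log2 fold change of 2.37 (SE 0.24, limma adjusted p = 9.5e-05), or 5.18-fold. The last step, from P5 to P56, was 0.76 (SE 0.24, limma adjusted p = 0.021), and it was no longer called without either P5 array, without P56 replicate 1 or 3, or with median centring in place of loess (0.19, adjusted p = 0.67). Without P56 replicate 2 it was 1.05. With scale normalization the first step was 0.67 (adjusted p = 0.29) and the step across birth 1.35 (adjusted p = 0.14), neither called.

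Hpd, 4-hydroxyphenylpyruvate dioxygenase, which makes homogentisate and is the target of the drug nitisinone, changed mostly before birth. Its log2 ratios were -3.59, -3.94 and -3.81 at E14.5 and -1.35, -1.32 and -1.02 at E18.5. After birth they were -0.69 and -0.80 (P5) and -0.27, -0.84 and -0.33 (P56). The E14.5 arrays stood far below all the others, the E18.5 arrays lay below both P5 arrays, and P5 and P56 overlapped. From E14.5 to E18.5 it rose by 2.55 (SE 0.16, limma adjusted p = 1.3e-07), or 5.86-fold. In the reported fit this was the largest change among the 8 enzymes at that step, while Kynu exceeded it with the processed signals (4.26 against 2.91) and with a normexp offset of 10 (3.00 against 2.83). This was 77.2% of its whole rise. The later steps were 0.49 from E18.5 to P5 (95% interval 0.106 to 0.867, limma adjusted p = 0.088) and 0.27 from P5 to P56 (limma adjusted p = 0.24), neither called. Over both together it rose by 0.75 (SE 0.16, limma adjusted p = 0.0012), a call lost under median centring (0.34, adjusted p = 0.26) and under scale normalization (0.43, adjusted p = 0.4).

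Hgd, homogentisate dioxygenase, which opens the ring of homogentisate, was called higher before birth and again between P5 and P56. In the reported fit the step between them went the same way but was not called. The steps were not tested against each other. Its log2 ratios were -2.64, -2.92 and -2.74 at E14.5 and -1.23, -1.20 and -1.07 at E18.5. The P5 arrays read -0.42 and -0.72 and the P56 arrays 0.52, -0.25 and 0.31. The stages followed each other without overlap. Before birth it rose by 1.60 (SE 0.17, limma adjusted p = 1.5e-05), or 3.04-fold, a call lost with scale normalization (1.18, adjusted p = 0.065). From E18.5 to P5 the difference was 0.59 (95% interval 0.167 to 1.01, limma adjusted p = 0.065), and from P5 to P56 it rose by 0.77 (SE 0.19, limma adjusted p = 0.0069). This last call was lost with median centring (0.03, adjusted p = 0.95) and in the table of the authors (0.78, adjusted p = 0.053).

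Fah, fumarylacetoacetate hydrolase, the last enzyme of the tyrosine route, was the only one of the 8 whose highest stage was E18.5. Its log2 ratios were -2.18, -2.33 and -2.34 at E14.5 and -0.14, -0.02 and -0.01 at E18.5. After birth they were -0.42 and -0.64 (P5) and -0.60, -1.22 and -0.84 (P56). All E18.5 arrays lay near the level of the adult reference and above every postnatal array, while P5 and P56 overlapped. Before birth it rose by 2.23 (SE 0.14, limma adjusted p = 1.6e-07), or 4.70-fold. From E18.5 to P56 it fell by 0.83 on the log2 scale (SE 0.14, limma adjusted p = 0.00026), so that the level at E18.5 was 1.78 times that at P56. The differences of the steps within this fall were -0.48 to P5 (95% interval -0.822 to -0.137, limma adjusted p = 0.064) and -0.35 from P5 to P56 (limma adjusted p = 0.085), neither called. With scale normalization the latter difference was 0.01 on the log2 scale (adjusted p = 0.99). The P56 mean of -0.89 ± 0.31 (SD, n = 3) was 0.541 times the reference, which is itself adult liver. Without P56 replicate 2 the fall from E18.5 was -0.67 (adjusted p = 0.00046), and with scale normalization it was -1.03 (adjusted p = 0.051), no longer called.

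Tdo2, the dioxygenase that opens the indole ring and commits tryptophan to the kynurenine route, stayed low before birth. Its brighter probe read -3.69, -3.86 and -3.80 at E14.5 and -3.73, -3.52 and -3.52 at E18.5. The P5 arrays read -1.95 and -1.91 and the P56 arrays 0.58, 0.12 and 0.68. The embryonic stages overlapped, both P5 arrays lay well above them, and all P56 arrays lay well above P5. The dimmer probe read -3.58, -3.88 and -3.85, then -3.73, -3.29 and -3.42, then -1.74 and -1.55, and at last 0.68, 0.26 and 0.76, in the same order of stages. From E14.5 to E18.5 the difference was 0.20 (95% interval -0.0994 to 0.491, limma adjusted p = 0.26) by the brighter probe and 0.29 (adjusted p = 0.15) by the dimmer one. It was called in 1 alternative, a normexp offset of 10 (0.43, adjusted p = 0.027), and turned to -0.07 with scale normalization. Across birth, from E18.5 to P5, it rose by 1.66 (SE 0.15, limma adjusted p = 4.7e-05), or 3.17-fold, although with scale normalization the difference was -0.49 (adjusted p = 0.72). From P5 to P56 it rose by a further 2.39 (SE 0.15, limma adjusted p = 2.8e-07), or 5.23-fold. From E18.5 to P56 this made a rise of 4.05 (SE 0.14, limma adjusted p = 9.8e-10), or 16.6-fold, the largest of the 8 enzymes in that comparison, and the dimmer probe gave the same 4.05. At E18.5 only 4.61% of the whole log2 rise had been reached, and at P5 43.8%.

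Kmo, the monooxygenase that hydroxylates kynurenine, also changed little before birth in the reported fit, at lower signal. Its log2 ratios were -1.68, -1.98 and -1.94 at E14.5 and -1.50, -1.56 and -1.63 at E18.5. After birth they were -0.95 and -0.57 (P5) and 0.57, 0.09 and 0.51 (P56). The E18.5 arrays lay only just above those of E14.5, and each later stage stood clear of the one before. The difference before birth was 0.30 (95% interval -0.0153 to 0.625, limma adjusted p = 0.11). The call at this step changed with the setting. It was called at 0.32 with the Cy5 channel alone, 0.39 without background subtraction, 0.60 with a normexp offset of 10, 0.75 in the table the authors deposited and 0.85 with the scanner software's processed signals (adjusted p from 0.00076 to 0.036). Kmo rose by 0.80 from E18.5 to P5 (SE 0.16, limma adjusted p = 0.0082), which was not called without P5 replicate 3 (0.61, adjusted p = 0.09), with median centring (0.78, adjusted p = 0.056) or with scale normalization (0.11, adjusted p = 0.74). From P5 to P56 it rose by 1.15 (SE 0.16, limma adjusted p = 0.00016), and with median centring by 0.26, not called.

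Kynu, kynureninase, which splits the side chain from hydroxykynurenine, was called higher before birth and after P5. In the reported fit the step between them went the same way but was not called, and the steps were not tested against each other. Its brighter probe read -3.02, -3.41 and -3.35 at E14.5 and -1.26, -1.33 and -1.39 at E18.5. The P5 arrays read -0.80 and -0.72 and the P56 arrays 1.05, 0.34 and 0.45. The stages followed each other without overlap. At E14.5 the probe was well above background in Cy5 on 1 of 3 arrays, with signals of 49.5, 51.8 and 53.8 over local backgrounds of 39, 38 and 39. The rise of 1.93 from E14.5 to E18.5 (SE 0.17, limma adjusted p = 2.5e-06) therefore starts from a level near the limit of detection, and it was 3.00 with a normexp offset of 10 and 4.26 with the processed signals. Across birth the difference was 0.57 (95% interval 0.16 to 0.98, limma adjusted p = 0.066), not called, and from P5 to P56 Kynu rose by 1.37 (SE 0.19, limma adjusted p = 0.00012). In the table of the authors that last value was 0.34 (adjusted p = 0.75), and with median centring 0.48 (adjusted p = 0.17). The second Kynu probe was well above background on 1 of 11 arrays and did not pass the filter, with stage means from -0.09 to 0.08.

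Haao, 3-hydroxyanthranilate dioxygenase, which makes the precursor of quinolinate and NAD, was called at the first and the last step and not between them. Its log2 ratios were -1.93, -2.42 and -2.08 at E14.5 and -0.65, -0.49 and -0.63 at E18.5. After birth they were -0.90 and -0.46 (P5) and 1.17, 1.19 and 1.38 (P56). The P5 arrays lay on either side of the E18.5 arrays, and the P56 arrays lay well above all others. From E14.5 to E18.5 it rose by 1.55 (SE 0.14, limma adjusted p = 3.9e-06), or 2.93-fold, and with the processed signals by 2.64. From E18.5 to P5 the difference was -0.09 (95% interval -0.437 to 0.262, limma adjusted p = 0.76), and without P5 replicate 2 it was 0.13. From P5 to P56 it rose by 1.93 (SE 0.16, limma adjusted p = 2.5e-06), or 3.81-fold. Its P56 level was 2.38 times the adult reference, the highest such ratio of the 8 in the reported fit.

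By step, the tyrosine and tryptophan enzymes were distributed as the plot of consecutive changes shows. From E14.5 to E18.5, 6 of the 8 enzymes were called higher and 0 lower, against 24.6% of all genes called higher and 22.8% lower. These were the 4 tyrosine enzymes, Kynu and Haao, and Tdo2 and Kmo did not pass. The median log2 fold change of the 4 tyrosine enzymes was 1.92 and of the 4 tryptophan enzymes 0.93, with -0.01 for all genes, and the difference between the routes was not tested. Within the scanning session that held both stages, E18.5 replicate 1 differed from the mean of E14.5 by 1.00 for Tat, 2.43 for Hpd, 1.54 for Hgd, 2.15 for Fah, 0.06 for Tdo2, 0.37 for Kmo, 2.00 for Kynu and 1.49 for Haao. These values use the same E14.5 arrays as the full comparison, and E18.5 replicate 1 is part of it too. Some closeness to the values over all arrays is therefore built in.

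**Figure D2:**
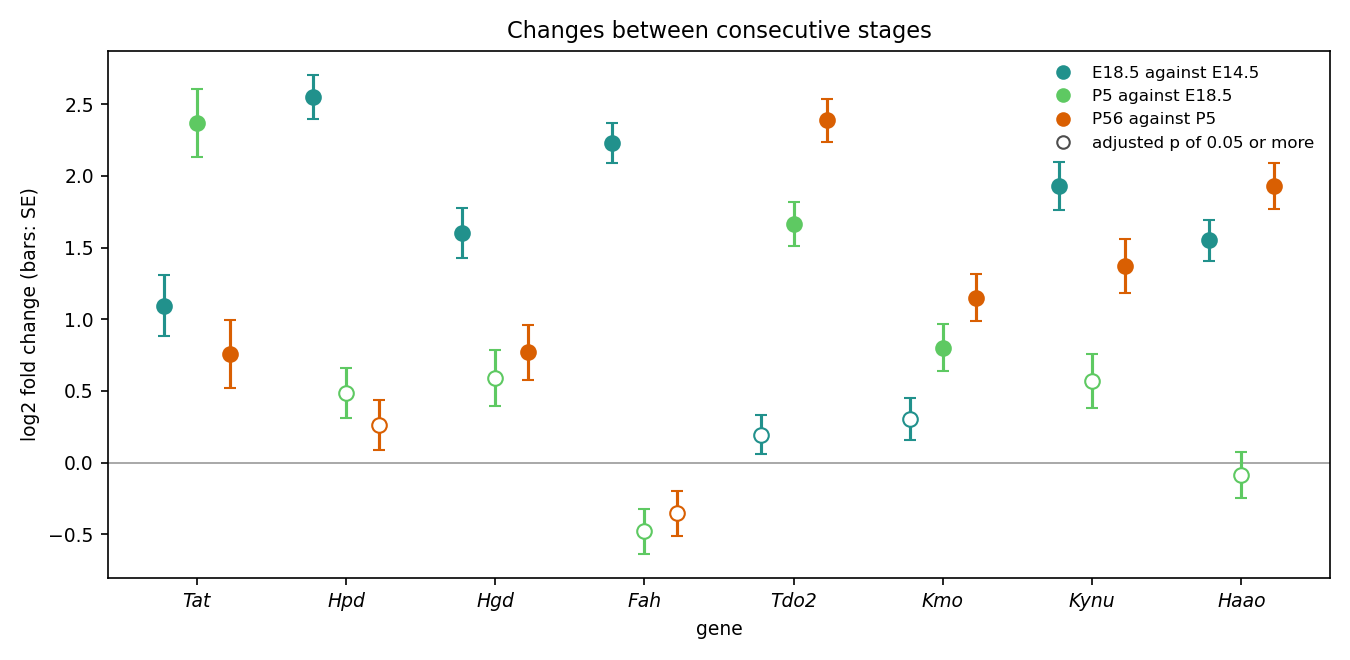
Log2 fold change (vertical axis, with bars of 1 SE) of each enzyme (horizontal axis) in the 3 consecutive comparisons, marked by colour, with open points where the adjusted p was 0.05 or more. In the reported fit Hpd, Fah, Kynu and Hgd have their largest step before birth (2.55, 2.23, 1.93 and 1.60) and Tat across birth (2.37). Tdo2, Haao and Kmo have it after P5 (2.39, 1.93 and 1.15). The steps were not tested against each other, and the largest changes with the setting. With scale normalization it is after P5 for Kynu and Hgd (2.02 and 1.35). With median centring or the processed signals it is before birth for Haao (1.59 and 2.64). Median centring puts it across birth for Kmo (0.78) and, by little, for Tdo2 (1.736 against 1.73). With scale normalization Tdo2, Hpd, Hgd and Kynu turn negative from E18.5 to P5.

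From E18.5 to P5, 3 of the 8 were called higher, Tat, Tdo2 and Kmo, and 0 lower, where 7.32% of all genes were called higher and 6.4% lower. The calls at this step moved with the processing. With scale normalization 0 enzymes were called higher and Hpd, Hgd, Tdo2 and Kynu changed sign, to -0.38, -0.22, -0.49 and -0.23. Leaving out a P56 array, which belongs to neither stage but shares the estimate of the spread, gave 6 higher and Fah lower without replicate 2, and 5 higher and Fah lower without replicate 1. Without P5 replicate 3, Kmo was not called and 2 were higher. By the methods' t-test on the same values 6 were higher and 1 lower at the unadjusted threshold, and 0 after Benjamini-Hochberg adjustment.

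From P5 to P56, 6 of the 8 were called higher and 0 lower, against 20.9% and 24.7% of all genes. Hpd and Fah did not pass. The 4 tryptophan enzymes were all called, with a median of 1.65, and 2 of the 4 tyrosine enzymes, with a median of 0.51. Within the shared scanning session, P56 differed from P5 replicate 3 by 0.87 for Tat, 0.32 for Hpd, 0.92 for Hgd, -0.25 for Fah, 2.37 for Tdo2, 0.96 for Kmo, 1.33 for Kynu and 1.71 for Haao. Median centring moved the median of all genes in this comparison from -0.02 to -0.47 and the share of calls that were higher from 45.7% to 6.84%, and with it 2 enzymes, Tdo2 and Haao, were called higher, Fah was called lower at -1.03 and Hpd turned to -0.35. By the methods' t-test after Benjamini-Hochberg adjustment 0 of the 8 were called, with Tdo2 at an adjusted p of 0.053.

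Across both postnatal steps, P56 against E18.5, 7 of the 8 were called higher and Fah lower, where 31.2% of all genes were called higher and 33.6% lower. The rises ran from 0.75 for Hpd to 4.05 for Tdo2, with 3.13 for Tat, 1.95 for Kmo, 1.94 for Kynu, 1.84 for Haao and 1.36 for Hgd. With median centring 6 were called higher, at 0.73 to 3.47, and the median of all genes moved to -0.43.

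In the order of the pathway, the genes around the 8 enzymes moved in part with them, as the map of stage means shows. Of 7 other genes of phenylalanine and tyrosine metabolism, 6 were called higher and 0 lower from E14.5 to E18.5, with a median on the log2 scale of 1.40, and 7 were higher from E18.5 to P56. Of all genes, 24.6% and 31.2% were called higher in these comparisons. Pcbd1 and Qdpr, which recycle tetrahydrobiopterin, rose by 1.51 and 1.5 before birth, and Gchfr, the regulatory protein of Gch1, by 1.49. Gch1, which starts the synthesis of that cofactor, rose by 3.36 from E18.5 to P56, Gchfr by 2.71, and Pts, the next enzyme of the synthesis, by 2.05. The exception before birth was Pts, at -0.43 (limma adjusted p = 0.091).

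**Figure D3:**
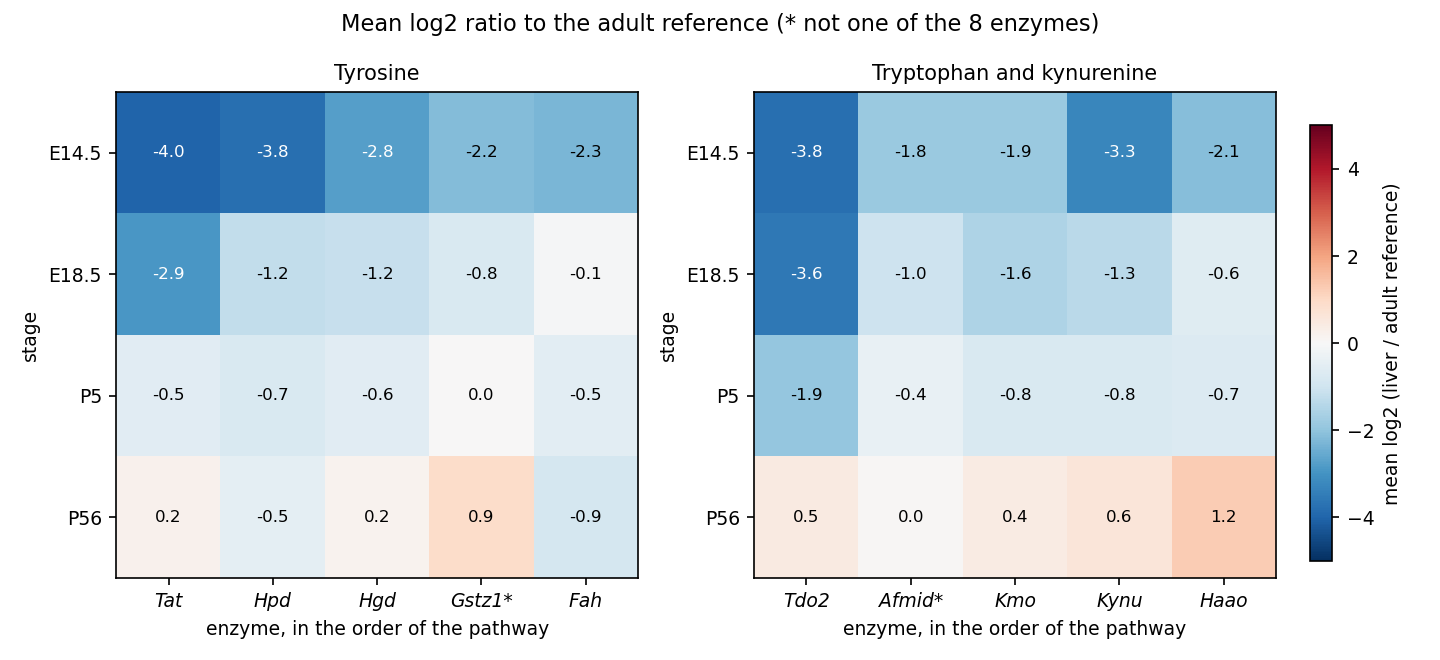
Mean log2 ratio to the adult reference (colour and number) at each stage (vertical axis) for enzymes in pathway order (horizontal axis), with tyrosine on the left and tryptophan on the right. Gstz1 and Afmid, marked by a star, are shown to complete the routes. The entry enzymes Tat and Tdo2 have the lowest means of the 8 enzymes at E18.5, -2.92 and -3.59.

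Of 9 other genes of tryptophan and kynurenine metabolism 6 were tested, and all 6 were called higher from E14.5 to E18.5, with a median of 1.82. In that comparison 24.6% of all genes were called higher. Ccbl2 and Aadat, aminotransferases that turn kynurenine into kynurenic acid, rose by 2.67 and 1.93, and Aldh8a1, a dehydrogenase of the route, by 2.08. From E18.5 to P56 4 of the 6 were called higher, against 31.2% of all genes. Among them Ccbl2 rose by 1.31, Aadat by 1.26 and Aldh8a1 by 1.12. Ccbl2 and Aadat rose up to P5, by 1.705 and 1.576. From P5 to P56 they differed by -0.39 and -0.32, neither called. Aldh8a1 rose by 0.55 and 0.57 at these steps. All 6 passed at the step where Tdo2 and Kmo did not, though the differences between genes were not tested. Afmid was at 0.81 at that step by its brighter probe and at 0.31 by its other probe. Ido1, the dioxygenase that does the work of Tdo2 outside the liver, did not pass the filter on brightness.

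Of 5 aromatic amino acid transporters tested, 1 was called higher and 1 lower from E14.5 to E18.5, against 24.6% and 22.8% of all genes. These were Slc7a8 at 1.09 and Slc16a10 at -0.64, with -0.26 and -0.44 by the other probes of Slc16a10. From E18.5 to P56, 4 were called lower, against 33.6% of all genes, led by Slc43a1 at -2.69 and Slc7a5 at -1.96. Slc3a2, also among these 4, was at -1.54 by its brighter probe and -0.07 by its other probe. Of 24 other enzymes of amino acid breakdown tested, 23 were called higher from E14.5 to E18.5, with a median of 1.59 against 1.58 for the 8 aromatic enzymes. The largest rises were those of Csad, of taurine synthesis, at 3.40 and Agxt, which transaminates glyoxylate, at 3.37. From P5 to P56 7 of the 24 were called higher and 9 lower, with a median of -0.10, where the 8 aromatic enzymes had 6 higher, 0 lower and a median of 0.96. Of all genes, 20.9% were called higher and 24.7% lower at this step. The 6 other tryptophan and kynurenine genes tested had 3 higher, 0 lower and a median of 0.12. All 7 other phenylalanine and tyrosine genes were higher, with a median of 1.39. With median centring 2 of the 8 were higher and 1 lower, and the lists were not tested against each other. From E18.5 to P56 15 of the 24 were higher and 1 lower, against 31.2% and 33.6% of all genes. The largest rises were those of Sds, serine dehydratase, at 3.00 and Gnmt, glycine methyltransferase, at 2.57, with Prodh2 at -0.57.

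Of 10 liver transcription factors and steroid regulators, 9 were called higher from E14.5 to E18.5, against 24.6% of all genes. The largest rises were those of Hsd11b1, which regenerates active glucocorticoid, at 3.31, and Cebpa at 2.31 (0.60 by its second probe). At the step to P5, 1 of the 10 was called higher, Hsd11b1, against 7.32% of all genes. From E18.5 to P56 Hsd11b1 rose by 1.71 and Cebpb by 1.61 (1.08 by its second probe). Nr3c1, the glucocorticoid receptor, had means of -1.47, -0.50, -0.47 and -0.62 from E14.5 to P56 by its brightest probe. The probes of Nr3c1 disagreed, with a difference from E14.5 to E18.5 of 0.97 by this probe and of 0.06, 0.10 and 0.34 by the other 3.

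Cell type markers also changed between these stages, and from E18.5 to P56 each marker list had more members called lower than higher, while 7 of the 8 enzymes were higher. The 8 hepatocyte markers were well above background on all arrays, and their mean log2 ratio per array ran from -3.35 to -3.15 at E14.5. E18.5 arrays ranged between 0.33 and 0.42, P5 arrays between -0.28 and -0.14, and P56 arrays between -1.22 and -0.57. All 8 were called higher from E14.5 to E18.5, led by Cps1 at 5.03, and from E18.5 to P56 6 were lower, led by Tf at -2.81, and Ttr was higher, at 0.47, the direction of Fah being that of the 6. Hepatoblast markers averaged 4.45 to 5.20 on embryonic arrays, 4.34 to 4.37 at P5 and 0.12 to 0.53 at P56. Of these 5 markers 3 were called higher from E14.5 to E18.5, and Afp changed by -6.27 from E18.5 to P56. The 8 erythroid markers tested averaged 3.46 to 3.84 on embryonic arrays, 3.02 to 3.36 at P5 and -0.28 to 0.11 at P56, and all 8 were well above background on every E14.5 array. Macrophage markers were called higher in 9 of 9 from E14.5 to E18.5 and lower in 5 of 9 from E18.5 to P56. Endothelial, stellate and biliary markers were called higher in 3 of 5, 2 of 7 and 3 of 5 from E14.5 to E18.5, and lower in 4 of 5, 5 of 7 and 5 of 5 from E18.5 to P56. Of all genes, 24.6% were called higher from E14.5 to E18.5, near the share of the stellate list, and 33.6% lower from E18.5 to P56. The part of these cell types in the values of the 8 enzymes was not tested, and in such samples fewer hepatocytes and less RNA per hepatocyte cannot be told apart.

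All 8 enzymes were lower at E14.5 than at P56. In the reported fit they were not all called at the same steps, and Fah fell from E18.5 to P56. A step that was not called is no sign of an unchanged level. The sequence before their start sites was examined as a description. RefSeq (GRCm38.p6) gave promoters for 7 of the 8 genes, all but Kynu. In the reported fit Hpd, Fah, Hgd and Kynu had their own largest step before birth. Of these, Hpd and Fah are shown here by the 250 bases before the start, and Hgd is not. The same 250 bases are shown for Tat and Tdo2, with the lowest ratios to the reference at E18.5. They lie at chr5:123182724-123182973 and chr7:84605943-84606192, both on the minus strand, chr8:109990186-109990435 on the plus strand and chr3:81975729-81975978 on the minus strand, and are written 5′ to 3′ in the direction of the gene. Capitals mark matches on either strand to the motifs searched, which were TATAAA of the TATA box, CCAAT of the box named after it, GTTAAT, part of the HNF1 site, TGTTCT, part of the site of the glucocorticoid receptor, and TTGCNNAA, the core of the C/EBP site.
Hpd: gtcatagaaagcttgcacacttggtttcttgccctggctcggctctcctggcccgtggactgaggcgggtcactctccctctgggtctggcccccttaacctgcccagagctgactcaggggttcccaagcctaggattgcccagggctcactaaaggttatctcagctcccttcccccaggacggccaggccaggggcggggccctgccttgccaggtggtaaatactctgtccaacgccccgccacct
Fah: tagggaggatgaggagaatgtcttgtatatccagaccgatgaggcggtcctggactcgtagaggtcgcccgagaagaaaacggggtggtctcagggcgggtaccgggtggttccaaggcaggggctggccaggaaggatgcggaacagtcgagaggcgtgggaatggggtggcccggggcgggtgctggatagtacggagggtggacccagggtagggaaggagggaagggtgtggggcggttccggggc
Tat: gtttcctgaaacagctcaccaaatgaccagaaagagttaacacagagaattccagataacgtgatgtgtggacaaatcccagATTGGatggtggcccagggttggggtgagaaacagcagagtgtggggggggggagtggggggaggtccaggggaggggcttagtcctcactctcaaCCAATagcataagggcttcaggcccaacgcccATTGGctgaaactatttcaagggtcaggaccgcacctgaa
Tdo2: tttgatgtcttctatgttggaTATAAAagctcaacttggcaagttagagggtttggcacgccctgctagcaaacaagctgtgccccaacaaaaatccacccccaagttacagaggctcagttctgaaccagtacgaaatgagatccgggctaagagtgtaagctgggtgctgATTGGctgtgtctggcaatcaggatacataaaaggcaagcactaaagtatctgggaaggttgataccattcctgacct
Hpd and Fah held none of the 5 motifs in this window. Their GC content was 62.8% and 64.4%, against 53.6% for Tat, 46.4% for Tdo2 and 38.8% for Hgd. Tat held CCAAT 3 times and Tdo2 once, and Hgd also held it, while 33.8% of 32851 promoters did. TATAAA was present in Tdo2, where its first base lay 229 bases before the start, and in Hgd, against 12.4% of promoters. Haao held GTTAAT and TGTTCT, found in 6.43% and 16.1% of promoters, and Hgd held TTGCNNAA, found in 9.56%. Kmo held none. These matches describe letters in the window and no binding was measured.

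Over the 11 arrays, the pattern of each enzyme could be set beside those of 16440 genes with a value on every array. The correlations below describe likeness over arrays that share the reference and fall into 4 stages. Among the 8, Tdo2 and Kmo were most alike, with Pearson's r = 0.988, as were Hgd and Kynu, with r = 0.988, which pairs a tyrosine with a tryptophan enzyme. Fah and Tdo2 were least alike, with r = 0.206. The closest genes were Tmem106b, Fuca1 and Ang1 for Tat (r = 0.989 to 0.996), BC027183, Azgp1 and Zhx3 for Hpd (0.996 to 0.997), Abhd14b, Tbc1d8b and Mbl2 for Hgd (0.992 to 0.994), and Gpld1, H6pd and Serpina1b for Fah (0.991 to 0.995). For Tdo2, Dio1 (0.998) and Slc22a7 (0.994) were among the closest, for Kmo an unnamed design transcript, Entpd5 and Acy3 (0.994 to 0.996), for Kynu 4732466D17Rik, Pex11a and Dnase2b (0.995 to 0.996), and for Haao Akr1c13, Gstm6 and Mgst1 (0.993 to 0.995).

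The order of the stages was the order of age for Tat, Hpd, Hgd, Tdo2, Kmo and Kynu. For Fah it ran E14.5, P56, P5, E18.5 from low to high, and for Haao E14.5, P5, E18.5, P56. Neighbours in that order that were not called different were E18.5 and P5 for Hpd, Hgd, Kynu, Fah and Haao, P5 and P56 for Hpd and Fah, and E14.5 and E18.5 for Tdo2 and Kmo. The plot of other settings shows how far the consecutive changes moved with the processing.

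**Figure D4:**
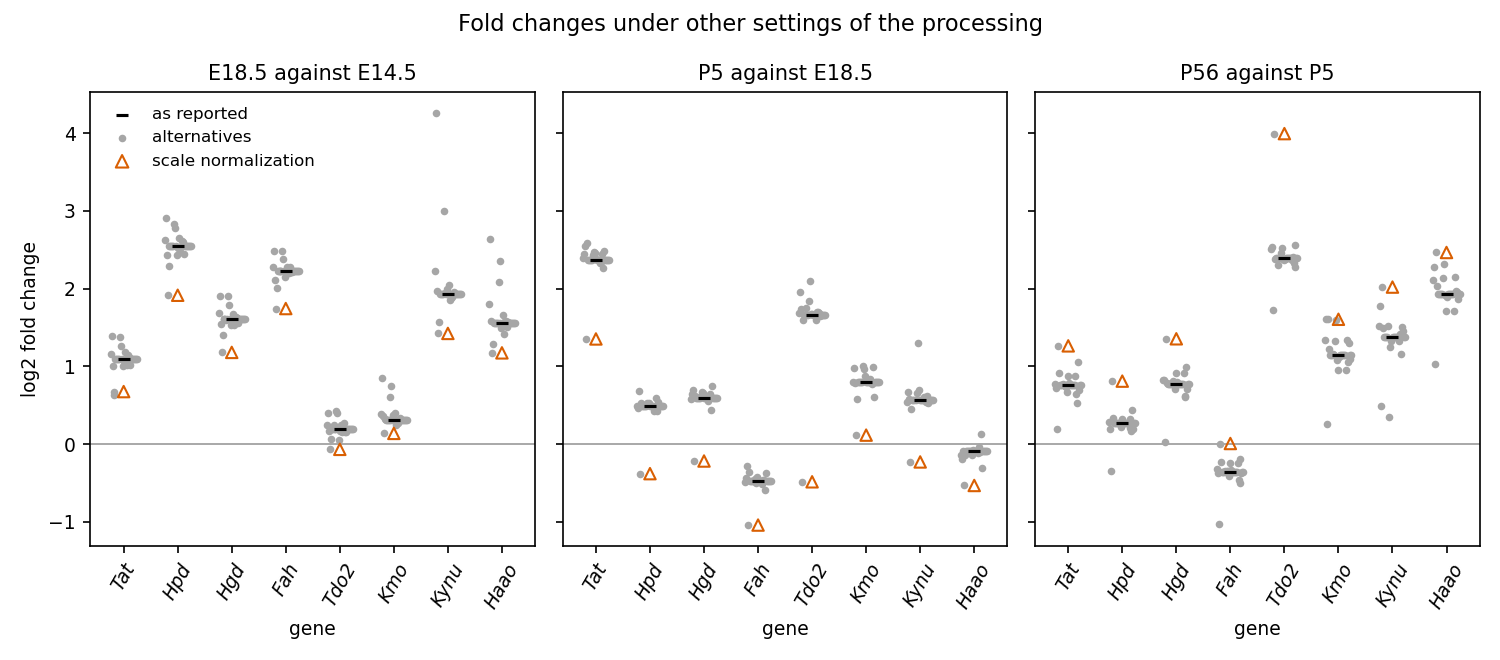
Log2 fold change (vertical axis) of each enzyme (horizontal axis) in the 3 consecutive comparisons, with the reported value as a bar, every alternative setting as a grey point and scale normalization as a triangle. From E14.5 to E18.5 the values of Hpd run from 1.91 to 2.91 and those of Tdo2 from -0.07 to 0.43. From E18.5 to P5 the triangles of Hpd, Hgd, Tdo2 and Kynu fall below 0.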

How the data were processed

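The authors deposited the intensity of every spot in both channels, with local background and quality marks, as written by Feature Extraction 9.5.1.1 not normalized between arrays. Their deposited table of normalized log2 ratios per gene, for which the submitters' processing notes name limma, holds 28050 genes, correlated with the values here at r = 0.815 to 0.931 per array, and served as an alternative only. The log10 ratios of the scanner software in the deposited files were not used.

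Mean signals were corrected with median local background by normexp (offset 50) and normalized by loess within arrays in limma 3.58.1 and R 4.3.3. The offset shrinks fold changes of dim genes. Control and outlier spots (177 to 356 per array) were left out, spots of a probe averaged, and probes kept that stood well above background (Cy5) throughout at least 1 stage with at most 1 missing value per stage. The brightest probe stood for a gene. All 11 arrays entered a single fit, with Benjamini-Hochberg adjustment over 16704 genes and a threshold of 0.05. A missing value was left missing (263 genes). P-values measure the spread between these replicates. The fit was tested on simulated data in which 200 of 16704 genes were changed, fewer than were called here, so recovery in the data can differ. A log2 change of 0.5 was recovered in 36% of changed genes in E18.5 against E14.5. It was recovered in 2% in P5 against E18.5 and in 0% in P56 against P5. For a change of 1 these shares were 98%, 94% and 94%. A difference near 0.5 that was not called is therefore no sign of an unchanged level.

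The 8 enzymes, the gene lists and the rule for named genes were chosen with earlier results of these data known. Named were the 8 enzymes, up to 3 largest rises and falls of the neighbouring pathway lists and up to 2 of the others in E18.5 against E14.5 and P56 against E18.5, and 3 most similar genes per enzyme. Nr3c1, Ido1, Gstz1 and Afmid were named for their place in the pathways, after their values had been seen. Some genes of the lists or the rule are not reported here. Names follow the array design, and RefSeq matched 11733 of the tested genes. Alternatives covered background, normalization, channel, filters, probe choice, the authors' table, a block for replicate number or scan, leaving out each array, and the methods' t-test. The offset of 10 was added after seeing the data. Plots used matplotlib 3.10.9 and Python 3.11.15.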

Additional observations from a re-analysis of the deposited data

How the results depend on the processing

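The counts of enzymes called in E18.5 against E14.5 and P56 against E14.5 stayed within 1.5 times under every alternative, although scale normalization lost Tat and Hgd in the first and Fah in the second. Scale normalization gave 3 higher in P5 against E14.5, 0 higher in P5 against E18.5 and 0 lower in P56 against E18.5, and it turned Tdo2 to -0.068 in E18.5 against E14.5, -0.55 in P5 against E14.5 and -0.49 in P5 against E18.5, Hpd, Hgd and Kynu to -0.38, -0.22 and -0.23 in P5 against E18.5, and Fah to 0.0071 in P56 against P5. Median centring gave 2 higher and 1 lower in P56 against P5, with Hpd at -0.35, and the authors' table gave 3 higher there. In P5 against E18.5, 1 enzyme was lower without background subtraction, the methods' t-test gave 6 higher and 1 lower unadjusted and 0 higher after Benjamini-Hochberg adjustment, and it gave 0 higher in P56 against P5 after adjustment. With each array left out in turn, P5 against E18.5 had 2 to 6 higher and 0 to 1 lower, P56 against P5 had 5 to 7 higher and 0 to 1 lower, and the other counts did not move. Without P5 replicate 2, Haao in P5 against E18.5 was 0.13. Where a P5 array was left out, the other was assumed to vary like the other stages. The cause of these shifts was not tested.

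Arrays with the same replicate number did not deviate together (r -0.306 to 0.187 over 15 pairs, 1 of them over 0.1), so the numbers do not pair the samples. The replicate block moved 1 call, Kynu in P5 against E18.5 (0.69, adjusted p = 0.015), and left the counts within 1.5 times. With the scan as a fixed block Tat in P56 against P5 had an adjusted p of 0.068. Median centring moved the median of all genes by over 0.1 at P56 (to -0.47 against P5, -0.43 against E18.5 and -0.33 against E14.5), as did a filter for all 11 arrays (0.16) and the processed signals (0.21) in P56 against E14.5, and the processed signals in P5 against E14.5 (0.155). Signal over background limits Kynu at E14.5, Kmo and Haao.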
